A study of Gallus gallus with 25 samples.

Results

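The gonads of male and female chick embryos at embryonic day 9.5 (E9.5) were compared on 8 one-colour miRNA arrays, 4 of male and 4 of female gonads, out of 25 arrays in the study. The arrays were chosen by their labels, Male E9.5 and Female E9.5, and all of them carried the chip number 4011845. Each sample was small RNA from gonads pooled by sex, so a value is an average over the pooled embryos and over every cell type of the gonad. At this age the embryos had been sexed by eye, from the unequal growth of the left and right gonad in females, per the labels. The labels name no strain, genotype or treatment. The other 17 arrays hold gonads of earlier embryos sexed by PCR, with 5 male and 4 female arrays at E5.5 and 5 male and 3 female arrays at E6.5. The submitters call the arrays biological replicates. The labels do not say whether replicates 1-1 and 1-2 of a sex come from separate pools. The p-values therefore measure only how far these arrays vary, and some of that variation may be technical.

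In birds the male has a pair of Z chromosomes and the female a Z and a W. The embryonic gonad starts out alike in both sexes and then forms either a testis, in which Sertoli cells enclose the germ cells in cords, or an ovary, which in hens develops on the left while the right gonad regresses. A miRNA is a short RNA that guides the silencing complex to messenger RNAs, mainly through its seed, bases 2 to 8 counted from its 5′ end. MiR-202 is known for its expression in vertebrate gonads. MiR-199a and miR-214 are known from mouse and human, where both are made from one RNA transcribed antisense to an intron of the dynamin gene DNM3, and are expressed in mesenchyme. In the GRCg7b gene table the chicken genes MIR199A2 and MIR214 likewise lie next to each other and beside DNM3.

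The arrays read each miRNA through a DNA probe complementary to it. The probes below carried the differences described here, or are the nearest relatives of those that did. They are printed 5′ to 3′ as the scanner tables give them, with capitals on the bases that pair with the seed. Some bear the name of the zebrafish (dre), human (hsa) or mouse (mmu) miRNA they were designed for rather than of the chicken one (gga), and such a probe reads whatever chicken RNA binds it.
dre-miR-214: ctgcctgtctgtgCCTGCTGt
gga-miR-199a: gaacaggtagtctgaACACTGGg
mmu-miR-199b: gaacaggtagtctaaACACTGGg
dre-miR-199*: aaccaatgtgcagaCTACTGTa
gga-miR-202: ttttcccatgctctATGCCTCt
dre-miR-202: ttttcccatgccctATGCCTCt
hsa-miR-202: ttttcccatgccctATACCTCt
mmu-miR-202: tcttcccatgcgctATACCTCt
gga-miR-202*: aaagaagtatatgcATAGGAAa
hsa-miR-22: acagttcttcaactGGCAGCTt
dre-miR-22a: acagttcttcagctGGCAGCTt
dre-miR-22b: acagctcttcaactGGCAGCTt
Counted from the 5′ end of the probe, dre-miR-202 differs from gga-miR-202 by T12C alone, outside the seed stretch. The hsa-miR-202 probe differs by T12C and by G17A, and the mmu-miR-202 probe by T2C, T12G and G17A. The change G17A lies in the seed stretch of both. Within miR-22, dre-miR-22a differs from hsa-miR-22 by A12G and dre-miR-22b by T5C, and all 3 share the seed stretch. Probes this similar may bind the same RNA, so those of one miRNA are not independent measurements.

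Each E9.5 array had between 87 and 177 of its 657 mature-miRNA probes above its negative controls, and the median foreground intensity per array ran from 74.5 to 152. Scan exposures of 0.5, 1 and 2 s occurred in both sexes. Over 148 probes, arrays of the same sex correlated at a median of 0.878 and arrays of different sex at a median of 0.848. The ranges were 0.774 to 0.921 within a sex and 0.732 to 0.943 between sexes, so the highest correlation joined arrays of different sex. The number of arrays limits the precision. Female replicate 1-2 stood apart in its control probes for U6, a nuclear RNA of the splicing machinery. Their median foreground was 255.75 on that array, against 1395.5 to 2391.5 on the other 7, and results are therefore also given without it. Of the marker lists for other cells, some were detected and some were not. No probe for white blood cells (0 of 8) or for the kidney miRNAs of the neighbouring mesonephros (0 of 6) was above the negative controls on any E9.5 array. Nor was any of the 9 for striated muscle or the 2 for liver. Of all 657 mature probes, only 206 were above the negative controls on any E9.5 array. A short list with none above the negative controls therefore does not show that a tissue was absent. The neural gga-miR-124a and mmu-miR-124a and the red blood cell dre-miR-451 and hsa-miR-451 were above them on all 8 arrays. The endothelial gga-miR-126 was above them on 2 male and 3 female arrays.

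The comparison of the sexes asked which miRNAs differ between the forming testis and the forming ovary. The miR-214 probe was higher in male gonads and both tested miR-22 probes were higher in female gonads. These were the 3 probes called among 213 tested, or 1.41% (limma, Benjamini-Hochberg adjusted p under 0.05, all 25 arrays in one model), with 0.469% called higher in males and 0.939% higher in females. Only 1 of the 3, dre-miR-214, was detected on all 8 arrays, and dre-miR-22a was not above the negative controls on any male array. At an unadjusted p under 0.05 there were 15 probes, 7.04% of those tested. Without female replicate 1-2 limma called 0 probes, with 18 at an unadjusted p under 0.05. The 2 miR-202 probes that were detected and the miR-199a probe were also higher on every male array than on any female one, but passed only under some settings. For 172 of the 213 probes the 95% interval of the difference lay within 2-fold in either direction. However, 35 of the 213 were not above the negative controls on any E9.5 array. For those a narrow interval sets no limit on the miRNA. Only 72 of the 657 mature probes were detected on all 8 arrays. The intervals also hold only for this normalised scale. With the authors' series values the dre-miR-214 difference was 2.58 rather than 1.38.

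**Figure D1:**
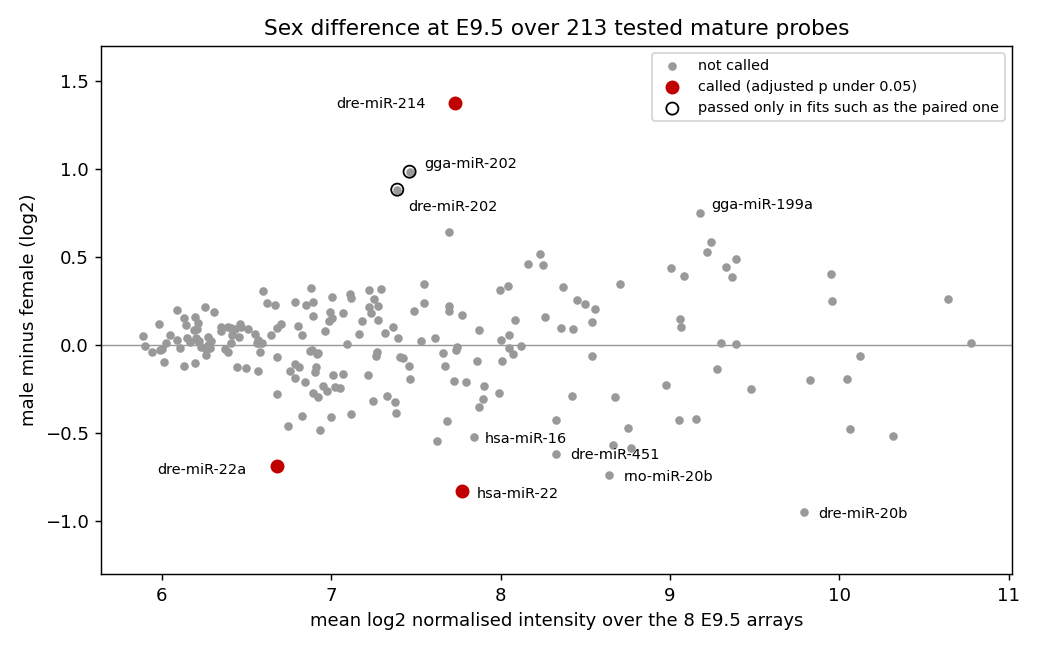
Male minus female difference (log2) at E9.5 for each of 213 tested mature probes, against its mean log2 normalised intensity over the 8 arrays. The red points are the 3 called probes, dre-miR-214 at 1.38, hsa-miR-22 at -0.82 and dre-miR-22a at -0.69, and the ringed points are the miR-202 probes, which passed only under some settings.

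MiR-214 is known in the mouse from skeletal and mesenchymal development. In males the dre-miR-214 probe had log2 normalised intensities of 8.39, 8.80, 8.86 and 7.64 on replicates 1-1, 1-2, 2 and 3. In females the values were 6.88, 7.01, 7.26 and 7.03 in the same order. Every male array was above every female array, with male replicate 3 the closest to the female values. Males averaged 8.42 ± 0.56 (SD, n = 4) and females 7.04 ± 0.16 (SD, n = 4). The sexes thus differed by 1.38 ± 0.32 on the log2 scale (SE, adjusted p = 0.0216 with limma), or 2.60-fold, with a 95% interval of 0.71 to 2.05 on the log2 scale. Before normalisation the probe read 420, 722, 546 and 209.5 units of foreground intensity in males and 127, 194, 183 and 159.75 in females. Its partner with 2 mismatched bases stayed below it on 8 of 8 arrays and differed between the sexes by 0.28 (log2, male minus female).

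The size of the miR-214 difference varied between pairs of arrays. It was 1.51 between the arrays numbered 1-1, 1.79 between those numbered 1-2, 1.60 between those numbered 2 and 0.61 between those numbered 3. At matched scan exposure it was 0.76 at 0.5 s, 1.25 at 1 s and 1.82 at 2 s, higher in males each time. Within the slide sectors that held both sexes it was 1.59 in sector 3 and 0.57 in sector 4. Each of these exposures and sectors held only 1 or 2 arrays of a sex. At 0.5 s, for this and the other probes, male replicate 3 alone was set against female replicate 1-1 alone. Male replicate 3 was also the only male array in sector 4. With the same-numbered arrays paired and the 8 E9.5 arrays fitted alone, the difference was 1.48 ± 0.22 (SE; adjusted p = 0.0130 by limma). With replicates 1-1 and 1-2 averaged, which may not be separate pools, it was 1.29 ± 0.41 (SE) and did not pass (adjusted p = 0.410 by limma). It also did not pass with the slide sector as a block (limma adjusted p = 0.0653) or with chip 4011845 alone (0.162). With no filter on dim probes, which adjusts over 657 probes, dre-miR-214 did not pass (adjusted p by limma = 0.0700). With the authors' series values its difference was larger, at 2.58 ± 0.56 (SE; adjusted p = 0.0228 by limma). Without female replicate 1-2 it stayed at 1.37 ± 0.36 (SE), but the limma adjusted p rose to 0.115. The limma call was also lost without male replicate 1-1 (adjusted p = 0.0596), 1-2 (0.134) or 2 (0.103) and without female replicate 1-1 (0.0878) or 3 (0.0662), while the difference stayed between 1.23 and 1.39. No chicken-named miR-214 probe was among the mature probes.

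The miR-199a probe pointed the same way. By name it matched no gene in the GRCg7b table, so it was not tied to the MIR199A2 gene beside MIR214. The gga-miR-199a probe read 9.33, 10.14, 9.28 and 9.47 in males and 8.93, 9.04, 8.47 and 8.77 in females, again with no overlap. Its difference of 0.75 ± 0.22 (SE) did not pass the threshold (adjusted p by limma = 0.103). Its mismatch partner differed by 0.28 in the same direction, and over that partner the gga-miR-199a difference was 0.35 ± 0.28 (SE; adjusted p = 0.918 by limma). The dre-miR-199* probe, for the opposite strand of a miR-199 hairpin, read 9.73, 9.48, 9.48 and 9.53 in males and from 8.96 to 9.43 in females. Its groups did not overlap either, with a difference of 0.44 ± 0.23 (SE; adjusted p = 0.691 by limma). The mmu-miR-199b probe, which differs from gga-miR-199a by G14A, gave 0.01 ± 0.24 (SE; adjusted p = 0.986 by limma). It was above the negative controls on only 2 male and 3 female arrays, against 4 and 4 for gga-miR-199a.

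MiR-143 and miR-145, the other members of the mesenchyme and smooth muscle list, are known from smooth muscle. The hsa-miR-145 probe differed by 0.40 ± 0.27 (SE) and the dre-miR-145 probe by 0.39 ± 0.33 (SE), while hsa-miR-143 differed by -0.20 ± 0.25 (SE) and dre-miR-143 by -0.09 ± 0.20 (SE). None of these 4 passed (limma adjusted p from 0.863 to 0.986). Of the 8 tested probes on the list, 6 had a higher mean in males, with a median difference of 0.39, whereas 54.9% of all tested probes had a higher male mean with a median of 0.02. The summed intensity of the 8 probes ran from 3866 to 5247 in males and from 2704 to 4056 in females. The list holds dre-miR-214 and gga-miR-199a and was written with earlier results of these data known. Several of its probes also read the same miRNA. Its count, median and sum are therefore no support apart from those probes. In pooled gonads a larger number of mesenchymal cells and more of these miRNAs per cell cannot be told apart, and the part that cell composition plays in the miR-214 difference was not tested.

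MiR-202 gave the next largest differences in favour of males. The gga-miR-202 probe read 8.08, 7.60, 8.37 and 7.78 in males and 6.85, 6.69, 7.12 and 7.21 in females. The lowest male value exceeded the highest female value, and the difference was 0.99 ± 0.31 (SE; adjusted p = 0.157 by limma). The dre-miR-202 probe read 7.69, 7.92, 8.12 and 7.60 in males and 6.73, 6.87, 7.07 and 7.12 in females. Its groups did not overlap either, with a difference of 0.88 ± 0.26 (SE; adjusted p = 0.103 by limma). Both probes were above the negative controls on all 4 male arrays, and on 2 (gga) and 3 (dre) of the 4 female arrays.

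Whether miR-202 passed depended on the fit. Fitted on the 8 E9.5 arrays alone, both miR-202 probes passed (adjusted p by limma = 0.0241 for each). That fit also normalised the 8 arrays by themselves and adjusted over 149 probes rather than 213. With the same-numbered arrays paired in that fit, the difference was 1.06 ± 0.19 (SE) for gga-miR-202 and 0.97 ± 0.18 (SE) for dre-miR-202 (adjusted p by limma = 0.0199 for each). That paired fit called 4 of 149 probes (2.68%), the miR-214, hsa-miR-22 and miR-202 probes, against 3 of 149 (2.01%) without pairing. A fit of all 25 arrays with an offset for each replicate number called 6 of 213 probes (2.82%). They were the 3 reported calls, both miR-202 probes and gga-miR-199a (adjusted p by limma = 0.00731 for dre-miR-202, 0.0162 for gga-miR-202 and 0.0424 for gga-miR-199a). That offset was shared by arrays of every stage with the same number, so it is not a pairing within E9.5. Without female replicate 1-2 the paired limma fit called 0 probes, with 28 at an unadjusted p under 0.05, and its lowest adjusted p was 0.0733, with 1.09 ± 0.20 (SE) for gga-miR-202 and 0.94 ± 0.19 (SE) for dre-miR-202. At matched exposures of 0.5, 1 and 2 s the gga-miR-202 difference was 0.92, 0.91 and 1.29, and that of dre-miR-202 was 0.86, 0.60 and 1.15. With the authors' series values the differences were 2.33 ± 0.69 (SE) for gga-miR-202 and 2.14 ± 0.53 (SE) for dre-miR-202, and neither passed (adjusted p by limma = 0.194 and 0.0734). With replicates 1-1 and 1-2 averaged they were 0.96 ± 0.40 (SE) and 0.84 ± 0.33 (SE), and neither passed (adjusted p by limma = 0.992 and 0.919). The mismatch partners of these probes differed between the sexes by 0.05 (gga) and 0.06 (dre).

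The remaining miR-202 probes were not above the negative controls on any E9.5 array. They were hsa-miR-202 and mmu-miR-202, with the changed base in the seed stretch, and gga-miR-202*, for the opposite strand of the hairpin. The mmu-miR-202 probe, tested because it was detected at earlier stages, gave 0.09 ± 0.37 (SE; adjusted p = 0.986 by limma). The gga-miR-202* probe read 6.57, 6.41, 6.38 and 6.27 in males and 6.47, 6.17, 6.78 and 6.19 in females. Its target holds 1 guanine, the base that takes up the dye, against 8 in the target of gga-miR-202, so a low signal from it sets no level for that strand.

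**Figure D2:**
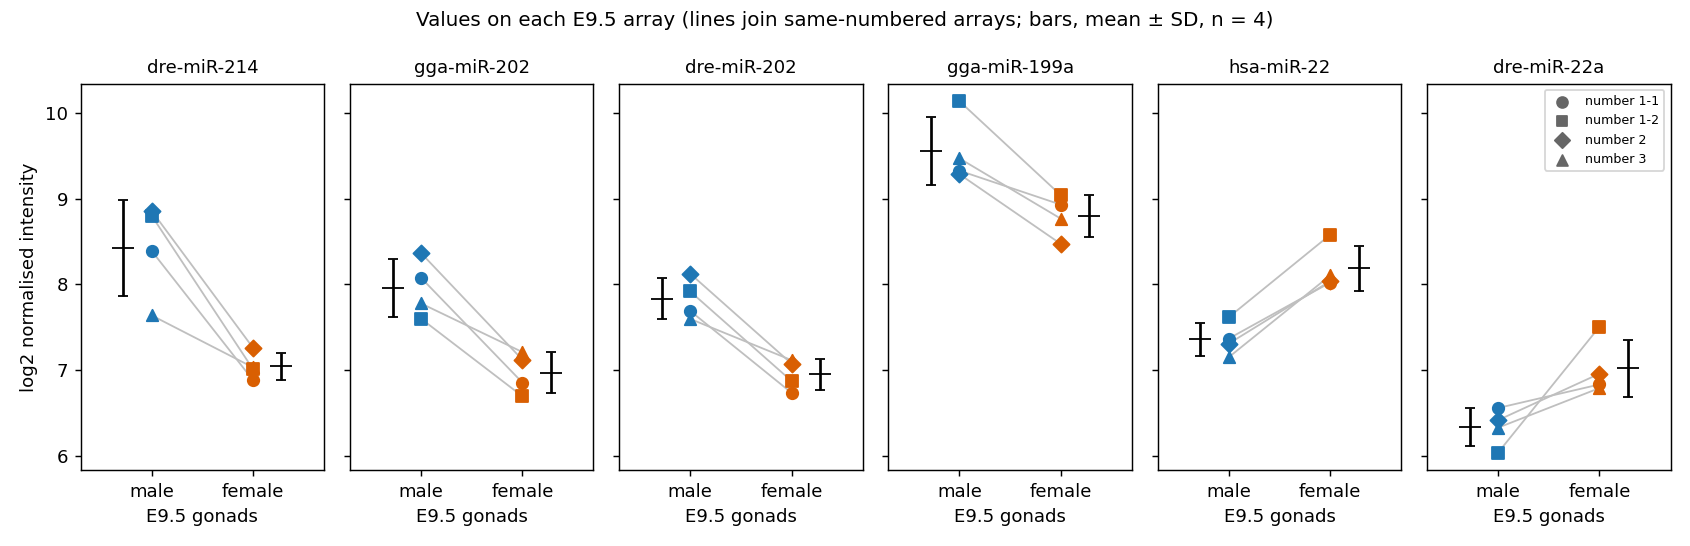
Log2 normalised intensity of 6 probes on each of the 8 E9.5 arrays, males at left and females at right in each panel. Lines join arrays of the same replicate number and bars give the mean ± SD (n = 4). The male points lie above all female points for dre-miR-214, both miR-202 probes and gga-miR-199a, and below them for hsa-miR-22 and dre-miR-22a.

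MiR-22, a widely expressed miRNA known in mammals to target the estrogen receptor alpha, was higher in female gonads. The hsa-miR-22 probe read 7.37, 7.62, 7.31 and 7.15 in males and 8.02, 8.58, 8.04 and 8.10 in females. Every female array was above every male array, and female replicate 1-2 was the highest. Males averaged 7.36 ± 0.19 (SD, n = 4) and females 8.19 ± 0.26 (SD, n = 4). Male minus female this came to -0.82 ± 0.18 (SE, adjusted p = 0.0216 with limma), or 1.77-fold higher in females, with a 95% interval of -1.20 to -0.45 on the log2 scale. The probe was above the negative controls on 3 male and 4 female arrays. Its mismatch partner differed by -0.05 and stayed below it on 8 of 8 arrays. By pair the differences were -0.65, -0.96, -0.73 and -0.95 for numbers 1-1, 1-2, 2 and 3, and at exposures of 0.5, 1 and 2 s they were -0.87, -0.70 and -1.12.

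The other miR-22 probes were detected on fewer arrays. The dre-miR-22a probe read 6.56, 6.04, 6.42 and 6.33 in males and 6.83, 7.51, 6.96 and 6.79 in females, also without overlap. It differed by -0.69 ± 0.16 (SE; adjusted p = 0.0216 by limma). It was not well above background on any male array and was detected on 3 female ones, so the fold is given as a bound. On the E9.5 arrays it thus met the filter of 3 arrays only through females, and its call is not separate support for hsa-miR-22. Setting each male array at its lowest detected signal, the bound for dre-miR-22a was 1.00-fold, female over male. That bound was not tested, and it leaves the size of the difference unknown. The dre-miR-22b probe was detected on 0 male and 1 female arrays and was below the filter for testing. With no filter on dim probes it was called, at -0.54 ± 0.11 (SE; adjusted p = 0.0169 by limma). It read 6.16, 6.21, 6.09 and 6.33 in males and 6.87, 6.62, 6.94 and 6.52 in females. The rno-miR-22* probe, for the opposite strand, was detected on no E9.5 array.

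Leaving out female replicate 1-2 moved both miR-22 probes. The hsa-miR-22 difference became -0.69 ± 0.19 (SE) and that of dre-miR-22a -0.53 ± 0.15 (SE), and neither passed (adjusted p by limma = 0.115 for each). The limma call of hsa-miR-22 was also lost without male replicate 1-1 (adjusted p = 0.0540), 2 (0.0668) or 3 (0.0654), at differences of -0.83, -0.81 and -0.75. That of dre-miR-22a was lost without male replicate 1-2 (adjusted p = 0.134), 2 (0.0668) or 3 (0.0654), at -0.59, -0.71 and -0.69. With the same-numbered E9.5 arrays paired, hsa-miR-22 passed at -0.87 ± 0.17 (SE; adjusted p = 0.0202 by limma), whereas dre-miR-22a did not (adjusted p by limma = 0.237). With the authors' series values hsa-miR-22 differed by -1.38 ± 0.57 (SE; adjusted p = 0.799 by limma), and over its mismatch partner by -0.76 ± 0.20 (SE; adjusted p = 0.0794 by limma). Fitted on the 8 E9.5 arrays alone without pairing, the limma adjusted p of hsa-miR-22 was 0.0502. With replicates 1-1 and 1-2 averaged, hsa-miR-22 differed by -0.83 ± 0.21 (SE) and dre-miR-22a by -0.63 ± 0.15 (SE). Neither passed then (adjusted p by limma = 0.133 for each).

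**Figure D3:**
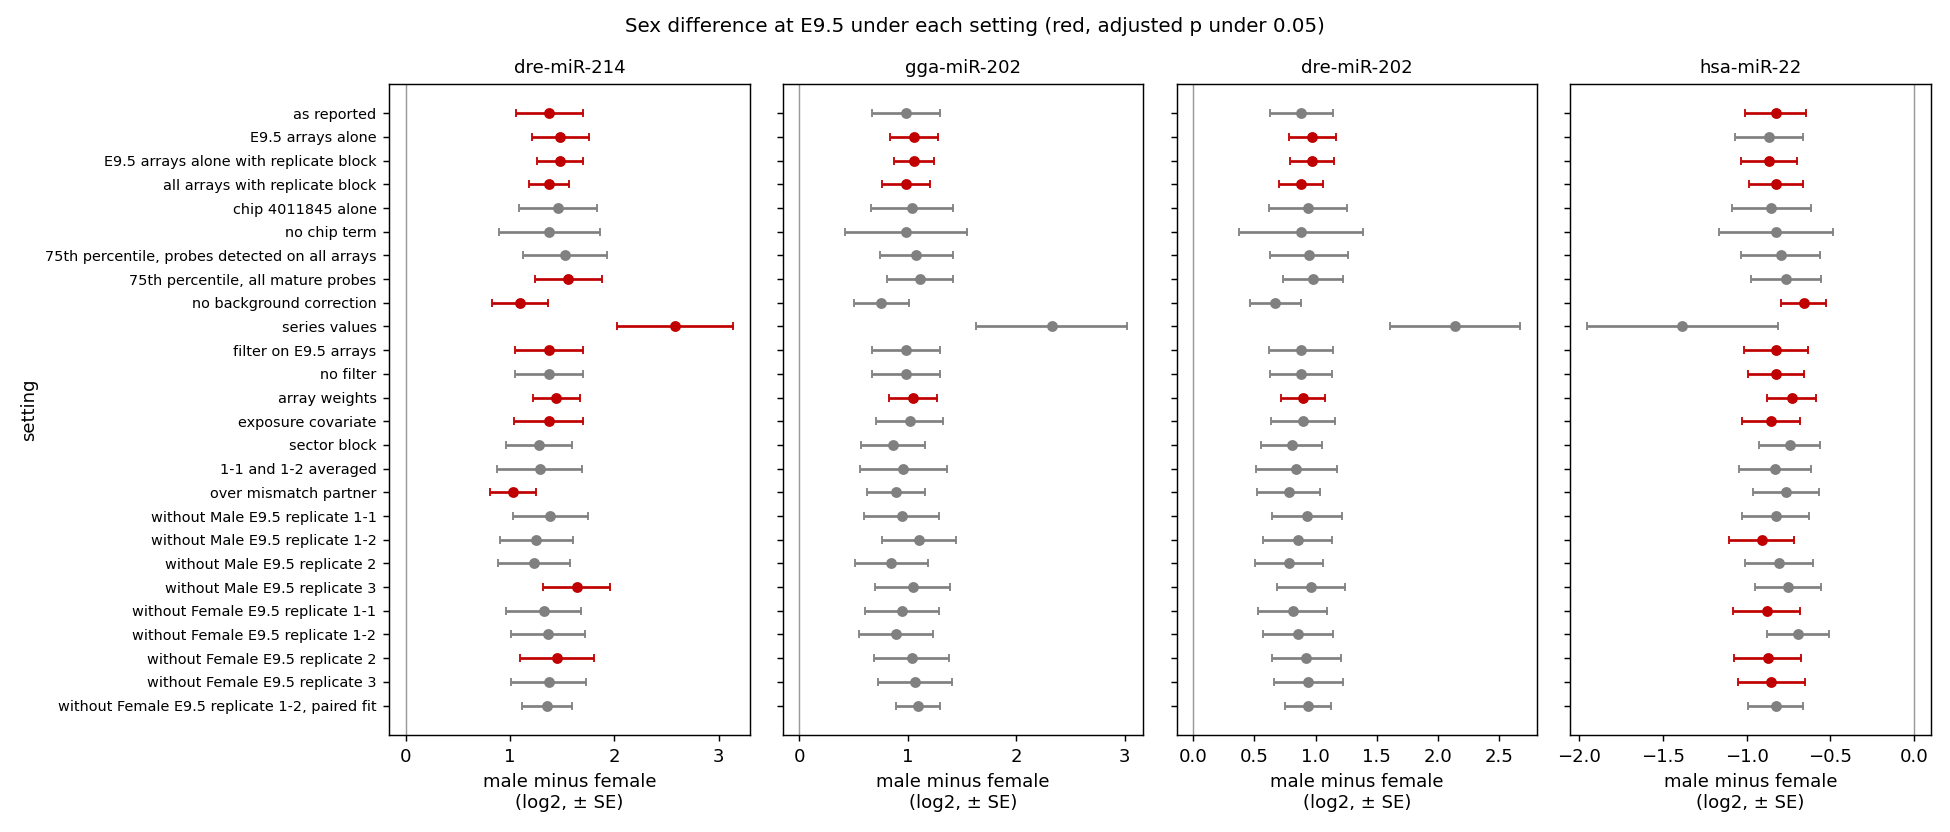
Male minus female difference at E9.5 (log2, bars ± SE) for 4 probes under each way of processing the arrays, one setting per row, with red for a limma adjusted p under 0.05. The miR-214 and miR-202 differences stayed above 0 and the hsa-miR-22 difference below 0 in every row, while the number of red points differed between rows.

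Counted without regard to the threshold, the sexes did not overlap for 13 of the 211 tested probes that were read on every E9.5 array (6.16%). The 5 with higher male values (2.37%) were the miR-214 probe, the detected miR-202 probes, gga-miR-199a and dre-miR-199*. The 8 with higher female values (3.79%) were hsa-miR-22, dre-miR-22a, dre-miR-20b, hsa-miR-16, gga-miR-16, dre-miR-15b, hsa-miR-301 and gga-miR-301, the last named after its values were seen. Counted over the same-numbered pairs, 26 probes were higher in the male array of every pair (12.3%) and 23 in the female array (10.9%).

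MiR-15 and miR-16 are known in mammals as brakes on cell cycle and survival genes such as cyclin D1 and BCL2. All 7 tested probes of that family had higher means in females, against 96 of all 213 tested probes. Their median was -0.32, and none passed in the reported fit. The hsa-miR-16 probe read 7.65, 7.46, 7.51 and 7.70 in males and 8.28, 8.06, 8.20 and 7.87 in females, a difference of -0.52 ± 0.21 (SE; adjusted p = 0.456 by limma). The gga-miR-16 probe differed by -0.35 ± 0.26 (SE) and gga-miR-15b by -0.43 ± 0.22 (SE; adjusted p = 0.902 and 0.691 by limma). The family's probes resemble each other, so the 7 do not count as 7 measurements.

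The miR-17-92 cluster and its paralogs, known for promoting proliferation, leaned the same way without a call in the reported fit. Of 22 tested probes 17 had higher female means, at a median of -0.19, against 96 of all 213 tested probes. Several of the 22 are for the same miRNA under different species names, so they do not count as 22 measurements. The dre-miR-20b probe read 9.54, 8.15, 9.66 and 9.92 in males and 9.93, 10.74, 10.26 and 10.14 in females, and differed by -0.95 ± 0.36 (SE; adjusted p = 0.394 by limma). Male replicate 1-2 was far below the other males. Leaving out that array brought the difference of dre-miR-20b to -0.56 ± 0.33 (SE; adjusted p = 0.812 by limma). The rno-miR-20b probe differed by -0.74 ± 0.32 (SE; adjusted p = 0.516 by limma), whereas the chicken-named gga-miR-20b gave -0.20 ± 0.19 (SE) and gga-miR-17-5p 0.01 ± 0.16 (SE; adjusted p = 0.986 by limma for both).

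MiR-451, a red blood cell miRNA, read higher in females on both probes. The dre-miR-451 probe had values of 8.52, 8.17, 7.69 and 7.68 in males and 9.19, 8.86, 8.17 and 8.31 in females, with overlap between the groups. Its difference was -0.62 ± 0.25 (SE; adjusted p = 0.482 by limma) and that of hsa-miR-451 was -0.56 ± 0.32 (SE; adjusted p = 0.731 by limma). All 4 pairs were higher in females for dre-miR-451, by -0.67, -0.68, -0.48 and -0.63. The summed intensity of these 2 probes, of 5 on the red blood cell list, was 397 to 828 in males and 681 to 1394 in females, and the miR-144 and miR-486 probes were not above the negative controls on any E9.5 array. The part of blood in the female-higher differences was not tested.

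The other probes with low unadjusted p-values differed by less. Higher in males were dre-miR-181c (0.39 ± 0.16, SE), gga-miR-181b (0.49 ± 0.24, SE) and gga-miR-23b (0.31 ± 0.18, SE). The miR-181 family, known from lymphocyte development, had 4 of 5 tested probes higher in males, at a median of 0.10. The dre-miR-210 and hsa-miR-210 probes, for a miRNA induced by low oxygen, differed by 0.29 ± 0.14 (SE) and 0.27 ± 0.15 (SE). The human-named hsa-miR-498 differed by 0.53 ± 0.29 (SE) and hsa-miR-373* by 0.59 ± 0.34 (SE). Without male replicate 2 these fell to 0.27 and 0.26, and without female replicate 1-1 to 0.29 and 0.20. Over its mismatch partner hsa-miR-498 differed by 0.24 and hsa-miR-373* by 0.93. None of these 7 passed in the reported fit (limma adjusted p from 0.506 to 0.774). With array weights, whose estimation did not converge, dre-miR-181c and gga-miR-181b passed (limma adjusted p = 0.0230 and 0.0421).

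Higher in females by mean were dre-miR-218a at -0.48 ± 0.21 (SE) and gga-miR-218 at -0.40 ± 0.18 (SE), for a miRNA encoded within the SLIT genes. The gga-miR-218 probe was not well above background on any male array. Its bound was 1.01-fold, female over male, and was not tested. The difference of -0.40 did not pass (adjusted p by limma = 0.585). The gga-miR-429 probe, of the epithelial miR-200 family, was not well above background on any male array and was detected on 3 female arrays. Males averaged 6.51 ± 0.22 (SD, n = 4) and females 6.97 ± 0.25 (SD, n = 4). Their difference did not pass (limma, adjusted p = 0.394), and no fold is given because the bound was under 1. The hsa-miR-301 probe differed by -0.39 ± 0.18 (SE; adjusted p = 0.631 by limma). The gga-miR-26a and dre-miR-26b probes both differed by -0.47, while dre-miR-26a, of the same family, gave 0.26 ± 0.33 (SE; adjusted p = 0.986 by limma). None of these female-higher probes passed in the reported fit. With array weights, whose estimation did not converge, dre-miR-218a passed (limma adjusted p = 0.0473).

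Of the further families and marker lists, some lay close to the median of all tested probes, 0.02, and others did not. The let-7 family, which holds back proliferation and marks differentiated cells, had 5 of 9 tested probes higher in males, at a median of 0.02 and with values from -0.29 to 0.33. The miR-99, miR-100 and miR-125 list had 5 of 6 higher in males, at a median of 0.08, with gga-miR-100 at -0.58 ± 0.31 (SE) as the exception. The miR-30 list had 3 of 6 higher in males, and the miR-10 and miR-196 list 2 of 8, at a median of -0.04. MiR-302, miR-290 and miR-373, known from pluripotent cells in mammals, stood on a list with 8 of 11 tested probes higher in males, at a median of 0.13. Most of these were named for mouse or human miRNAs. Of the 35 probes on that list, 27 were not above the negative controls on any E9.5 array. Among those 27 were gga-miR-302a, gga-miR-302b, gga-miR-302c, gga-miR-302d and gga-miR-367. Of the granulosa list, 3 of 5 were higher in males, at a median of 0.09, and no probe on it was detected on more than 2 of the 8 arrays. The endothelial gga-miR-126 differed by -0.23 ± 0.26 (SE), and the neural list had 3 of 4 higher in females. The epithelial list had a median of -0.19 over 2 tested probes. They were gga-miR-429 at -0.46 ± 0.17 (SE) and gga-miR-205b, not above the negative controls on any E9.5 array, at 0.08 ± 0.24 (SE). Its 12 probes had 0 detections on male arrays and 6 on female arrays, against 491 and 576 over all mature probes. The gga-miR-221 and mmu-miR-221 probes both differed by -0.01, and the miR-34 probes by -0.12 and -0.09. No probe on these lists passed.

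**Figure D4:**
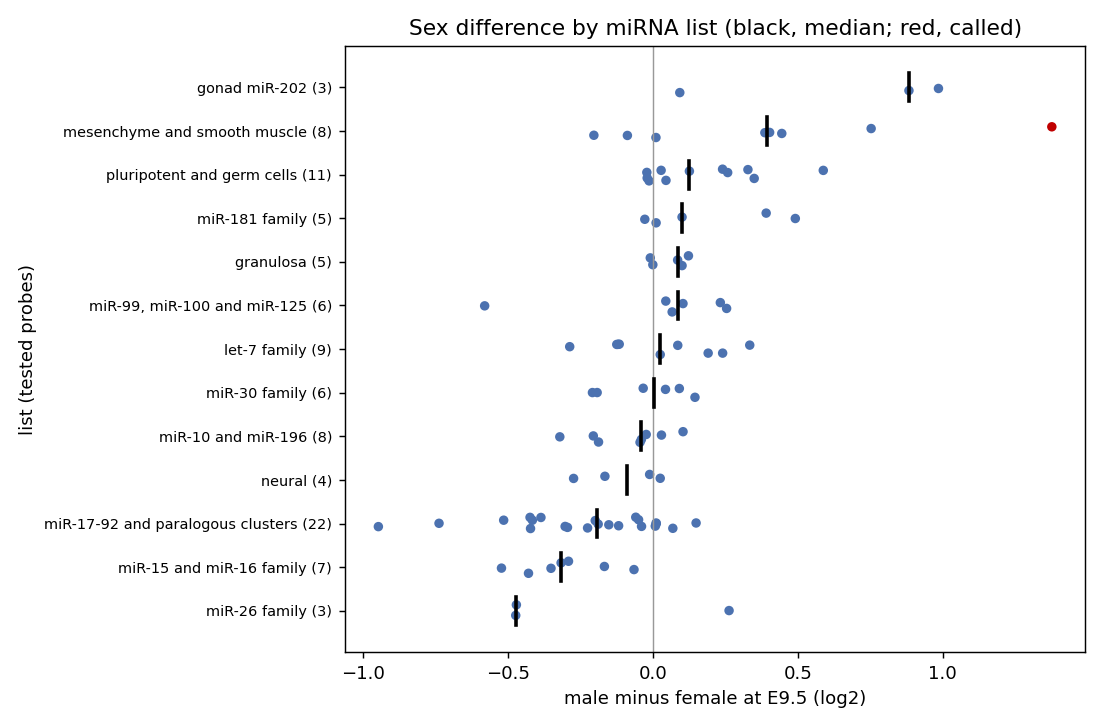
Male minus female difference at E9.5 (log2) of each tested probe on the lists with at least 3 tested probes, with the number tested in brackets and a black bar at the median. The miR-202 list (0.88) and the mesenchyme list (0.39) have the highest medians, the miR-15 and miR-16 list (-0.32) and the miR-26 list (-0.47) the lowest, and the single red point is dre-miR-214. The lists were written with earlier results of these data known.

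Males carry an extra copy of every Z-linked gene. In the GRCg7b gene annotation, 117 of the 122 chicken-named probes matched an annotated gene, and 5 of them had every gene copy on the Z. The 3 that were tested were gga-miR-23b at 0.31 ± 0.18 (SE), gga-miR-24 at -0.17 ± 0.19 (SE) and gga-miR-31 at -0.23 ± 0.20 (SE). Of these 3, 1 was higher in males, and none passed (limma adjusted p from 0.731 to 0.986). Of the 48 tested chicken-named probes matched to genes but not Z-linked in this way, 23 were higher in males, at a median of -0.02. An effect of the extra Z copy was not tested.

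The same contrast before the gonads differ by eye gave smaller values for most of these probes. For dre-miR-214 the male minus female difference was 0.36 ± 0.31 (SE) at E5.5 and -0.26 ± 0.34 (SE) at E6.5. For hsa-miR-22 it was -0.15 ± 0.17 (SE) at E5.5 and 0.15 ± 0.19 (SE) at E6.5. The gga-miR-199a probe gave -0.14 ± 0.21 (SE) and 0.05 ± 0.23 (SE) at the same stages. The dre-miR-202 probe was already higher in males at E5.5 by 0.60 ± 0.24 (SE), against 0.26 ± 0.30 (SE) for gga-miR-202. At E6.5 these were 0.22 ± 0.27 (SE) and 0.35 ± 0.33 (SE).

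The change itself, the difference at E9.5 minus that at E5.5, passed for 0 of 213 probes (0%), the lowest limma adjusted p being 0.613, with 13 probes (6.1%) at an unadjusted p under 0.05. It was 1.02 ± 0.45 (SE; adjusted p = 0.763 by limma) for dre-miR-214, -0.67 ± 0.25 (SE; adjusted p = 0.613 by limma) for hsa-miR-22 and 0.89 ± 0.31 (SE; adjusted p = 0.613 by limma) for gga-miR-199a. The interval for dre-miR-202, -0.45 to 1.02, spans 0. These data therefore do not show that the sex difference of any probe at E9.5 differs from that at E5.5. All 8 E9.5 arrays share one chip number, whereas 7 arrays of the earlier stages carry another, and the fit adjusts for it with an additive term.

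**Figure D5:**
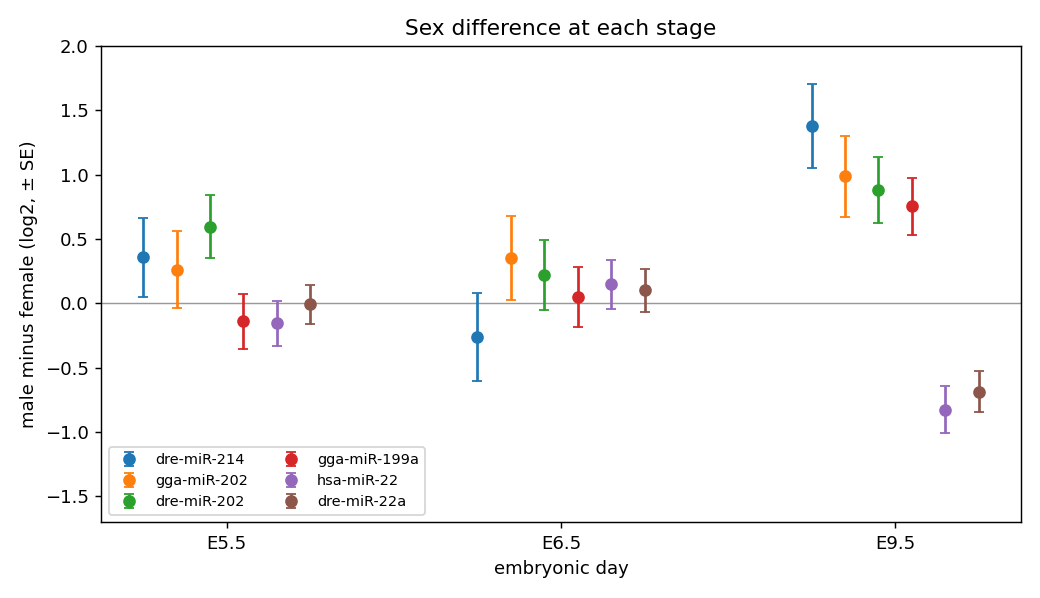
Male minus female difference (log2, bars ± SE) of 6 probes at E5.5, E6.5 and E9.5, from one fit of all 25 arrays. At E5.5 and E6.5 the points lie between -0.26 and 0.60, and at E9.5 dre-miR-214 reaches 1.38 and hsa-miR-22 -0.82. No change from E5.5 to E9.5 passed the threshold.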

How the data were processed

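The authors deposited scanner tables with each probe's median foreground intensity, together with a series table that is an exact straight line of those medians on each array. Per the labels, the label was Cy5 coupled to guanine in small RNA under 200 nt, which favours G-rich miRNAs. Tables hold 657 mature probes, 657 partners with 2 mismatches (those named 2-mut counted among them), 74 hairpin, 17 positive and 7 negative control probes. Excluded spots were dropped. Foreground intensity was corrected with normexp (offset 50), put on the log2 scale and, for mature probes, quantile-normalised over 25 arrays with limma 3.58.1 in R 4.3.3. A probe was detected above the 95th percentile of an array's negative controls, and tested if detected on at least 3 of 25 arrays. A single limma model fitted 6 group means plus the chip number, with Benjamini-Hochberg adjustment. A fold from a probe undetected in one sex is a bound, from each dim array's lowest detected signal. The reported fit was also run on simulated arrays with independent noise on each array. They held no variation shared by same-numbered arrays, whereas deviations of the same-numbered E9.5 arrays were correlated. That check therefore does not cover the paired fits, nor the effect of such shared variation on the reported fit.

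Deviations of same-numbered male and female E9.5 arrays correlated at 0.36, 0.36, 0.43 and 0.25 (numbers 1-1, 1-2, 2 and 3) and at 0.37, 0.36, 0.44 and 0.11 with the E9.5 arrays fitted alone. All exceeded 0.1, so they were taken as pairs; the labels do not state a pairing. For number 3 the evidence is weak, since its male array correlated at 0.23 with a female array of another number. Named probes were all calls in the reported or the paired E9.5 fit, the 12 lowest p-values in each direction, all probes of called miRNAs, of miR-202 and of miR-199, and up to 4 examples per list. Probes, lists and tests were chosen with earlier results of these data known. Gene names come from RefSeq's GRCg7b table. For the files themselves, no build was given in the sources used here.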

Additional observations from a re-analysis of the deposited data

Results flagged for a closer look

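In 62 groups of 4 arrays (31 named probes in each sex), 5 held 1 array whose gap from the others exceeded Dixon's 95% critical value, a test that by chance picks out about 5% of groups. For hsa-miR-22, female replicate 1-2 read 8.58, above the other females at 8.02 to 8.10. For dre-miR-199*, female replicate 3 read 9.43 against 8.96 to 9.04. For hsa-miR-373*, male replicate 2 read 10.5 against 9.16 to 9.23. Both remaining cases concern probes not above the negative controls, hsa-miR-199b at 5.90 on male replicate 3 and rno-miR-22* at 5.97 on female replicate 1-1.

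Outside the mature probes, 17 of the 74 probes tiled along miRNA hairpins were above the negative controls on all 8 E9.5 arrays. The U6 control probes were lower on female replicate 1-2, at a median log2 intensity of 7.89 against 10.27 to 11.16 on the others.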

How the results depend on the processing

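The count of called probes moved with the settings, from the reported 3. It was 6 with all arrays and the replicate block, an offset for each replicate number shared by all stages. It was 4 with that block on the E9.5 arrays alone, where it pairs the same-numbered arrays. With array weights, whose estimation stopped before converging, it was 11, with 6 male-higher and 5 female-higher. Among those 11 were dre-miR-181c, gga-miR-181b, hsa-miR-16, rno-miR-20b and dre-miR-218a, which were called in no other setting. The count was also 3, but over different probes, in further settings: on the E9.5 arrays alone, 3 male-higher and 0 female-higher (dre-miR-214 and both miR-202 probes), and with no filter, 0 and 3 (hsa-miR-22, dre-miR-22a and dre-miR-22b). It was 1 after scaling to the 75th percentile of all mature probes, with the series values, and for the ratio to the mismatch partner (dre-miR-214 in that case, 1.03, limma adjusted p = 0.0217). It was 0 after scaling to the 75th percentile of probes detected on all arrays, with chip 4011845 alone, without a chip term, with the slide sector as a block, and with replicates 1-1 and 1-2 averaged. Leaving out 1 E9.5 array gave 0 to 3 calls: 0 without male replicate 2 or female replicate 1-2, 1 without male replicate 1-1, 1-2 or 3, and 2 without female replicate 1-1 or 3. The paired E9.5 fit without female replicate 1-2, added after seeing the data, gave 0. In the 8 settings with 0 calls, limma gave between 3 and 28 probes at an unadjusted p under 0.05. The change from E5.5 to E9.5 gave 0 calls in every setting run, with 1 to 41 at an unadjusted p under 0.05. Of the alternative values for the named probes, 538 kept their direction and their side of the threshold. A further 15 newly passed, 41 no longer passed and 0 reversed. Most named probes were not called, and those 41 all belong to the 3 called ones. In settings that kept every E9.5 array, dre-miR-214 passed in 10 of 16, hsa-miR-22 in 7 of 16 and dre-miR-22a in 6 of 15. With 1 array left out they passed in 2, 4 and 4 of 9 fits. The cause of the shifts was not tested.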
